A study of Mus musculus with 6 samples.

Results

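DNA damage repair genes were read in sorted basal cells of the mouse esophagus. The set held 49 of the 24016 genes measured. It was chosen by name to cover the main repair routes, with earlier results of these data known. The tested cells, labelled Krt15+, were CD29high GFP+, and the cells they were set against, labelled Krt15-, were CD29high GFP-. Each group held 3 libraries. Both came from Krt15-CrePR1;R26mTomato/mGFP mice, in which a Krt15 promoter drives a Cre that is active only with RU486, and recombination switches a membrane reporter from Tomato to GFP. All mice received 1 mg of RU486 and the cells were sorted 24 h later. GFP therefore records recombination and not the level of Krt15 at the sort, and a cell without recombination stays GFP- whatever its Krt15 level. CD29 is integrin beta-1, a surface marker of basal cells. No source used here gives the strain, the age or the number of animals per library. Nothing says that the libraries came from separate animals, so p-values measure only the spread from library to library, and part of that may be technical.

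Cells repair DNA by routes that match the lesion. Base excision removes small oxidised or alkylated bases, nucleotide excision removes bulky and ultraviolet lesions, and mismatch repair corrects replication errors. Double-strand breaks are joined end to end at any time of the cell cycle, or copied from the sister chromatid by homologous recombination after replication, while the Fanconi proteins unhook crosslinks between strands. The basal layer holds the dividing cells of the esophageal epithelium, the cells in which unrepaired lesions can be passed on.

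The excision repair genes Apex1, Ercc1 and Xpa and the histone gene H2afx were the most abundant of the set by mean level, and the routes of recombination and Fanconi repair had many of the lowest. Levels are in FPKM, fragments scaled to transcript length and to the mapped fragments of the library. The scaling is meant to make genes comparable. By mean over the 6 libraries, Apex1 led with 96.9 FPKM and made up 27.2% of the summed FPKM of all repair genes of the set. H2afx followed with a mean of 45.3 FPKM, Ercc1 with 40.0 and Xpa with 39.3. These 4 genes together made up 62.2% of the sum. They were also the shortest of the set by longest annotated transcript: Apex1 1239 bp, Xpa 1241, Ercc1 1375 and H2afx 1384. Ogg1, next at 1601 bp, had a mean of 1.08 FPKM. The part of transcript length in the ranking was not tested. Only 5 of the 49 genes reached 1 FPKM in all 6 libraries: Apex1, Xrcc1, Xpa, Ercc1 and Rnf8. A further 5 reached it in all 3 Krt15+ libraries but not in all Krt15- ones, namely Rad51b, Xrcc5, Xrcc4, Parp2 and H2afx. No gene of the set did so the other way round. All 5 fell short in Krt15- replicate 1, where only 3247 genes of the whole table reached 1 FPKM, and Xrcc5, Parp2 and H2afx fell short only there. The share of all genes with this pattern was not counted. At the low end, 8 genes stayed below 1 FPKM in every library (Brca1, Brca2, Bard1, Rad51c, Xrcc3, Ercc5, Fanca and Fancd2), and Brca2 and Xrcc3 were listed at 0 throughout.

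**Figure D1:**
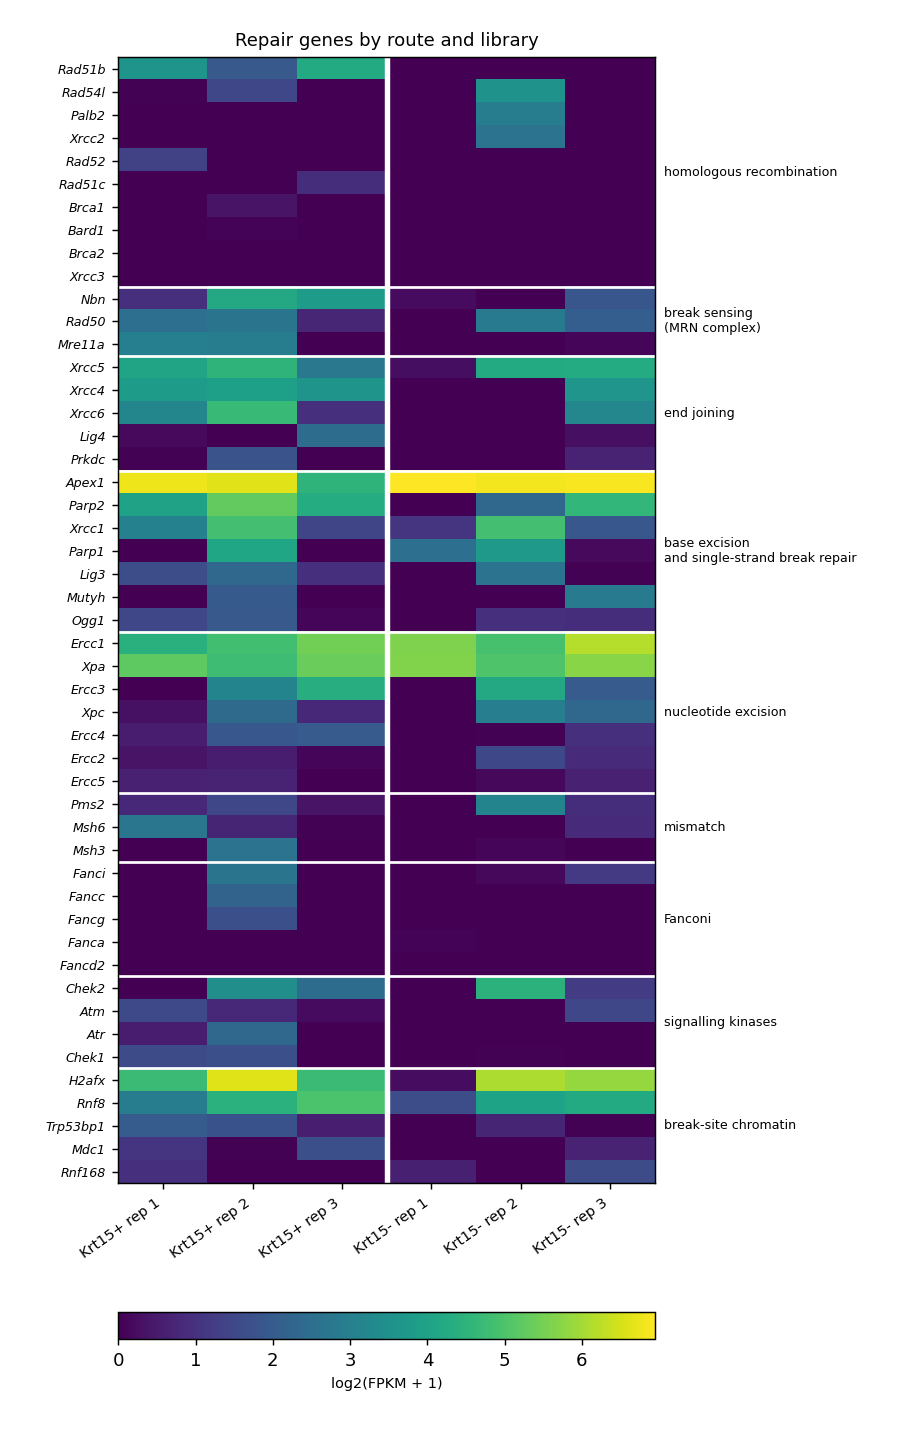
Level of each of the 49 repair genes (rows, ordered by repair route) in each library (columns, Krt15+ left of Krt15-), coloured by log2(FPKM + 1). Apex1, Ercc1 and Xpa are bright in every column, recombination and Fanconi rows are mostly dark, with brighter cells in single columns, and the Krt15- replicate 1 column is dark outside a few genes.

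Detection varied widely among the libraries of each group. At 1 FPKM or more stood 21, 32 and 16 of the 49 genes in Krt15+ replicates 1 to 3, against 6, 19 and 19 in Krt15- replicates 1 to 3. The groups thus overlapped, and the Krt15- replicate 1 library stood apart with the fewest. That library was also low over the whole transcriptome: 3247 genes reached 1 FPKM there, against 6906 to 9194 in the other 5 libraries. As a share of all genes this was 35.3, 38.3 and 29.4% in the Krt15+ libraries and 13.5, 28.8 and 33.0% in the Krt15- ones, beside 42.9, 65.3 and 32.7% of the repair genes in the Krt15+ libraries and 12.2, 38.8 and 38.8% in the Krt15- ones. Of the 294 values of the set, 112 were exactly 0, with 42 of these in Krt15+ and 70 in Krt15- libraries. Depth, estimated from the value of a single fragment, was 27.6, 34.1 and 29.9 M fragments in the Krt15+ libraries and 29.0, 41.6 and 39.6 M in the Krt15- ones (M, mega), so the library with the fewest genes was not the shallowest. A 0 in this table need not mean that a gene is silent. Of 16 genes that every cell uses, 16 reached 1 FPKM in each Krt15+ library and 13, 14 and 15 in Krt15- replicates 1 to 3. Among them Tbp, the TATA-binding protein, was listed at 0 in Krt15- replicates 1 and 2. What gave rise to the zeros was not tested. For a gene with a 0, the values of the libraries are given without a group mean.

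**Figure D2:**
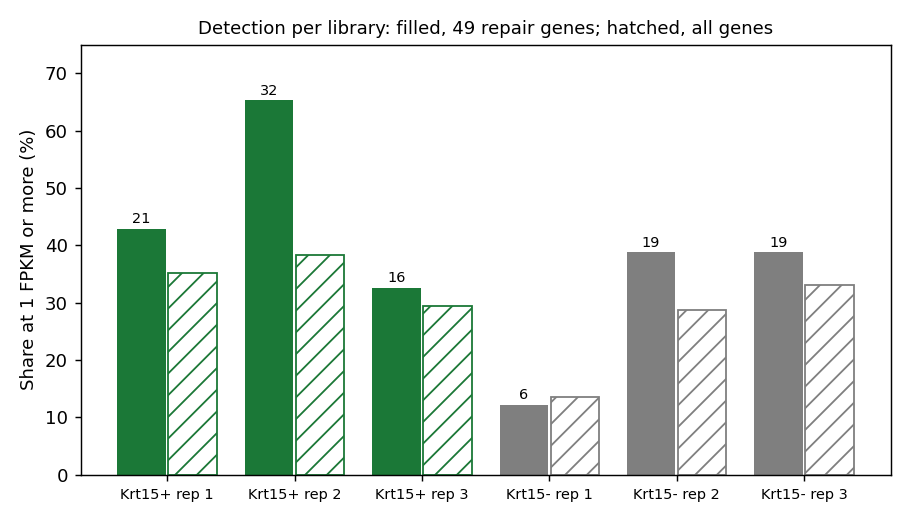
Share of genes at 1 FPKM or more (y axis, percent) in each library; filled bars show the 49 repair genes with their number on top, hatched bars all 24016 genes. Krt15+ replicate 2 has the most repair genes (32) and Krt15- replicate 1 the fewest (6), and the all-gene bars are lowest in that library too.

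No repair gene passed the test between the groups. The 9423 genes that averaged 1 FPKM or more over the libraries were compared as log2(FPKM + 1) with limma, 28 of them repair genes of the set, and 0 of the 28 had an adjusted p below 0.05, beside a background of 0.00% of all genes tested. The adjusted p of the 28 lay between 0.79 and 0.99, and the smallest over all genes was 0.40. At an unadjusted p below 0.05 limma had 1 repair gene higher in Krt15+ cells, Rad51b, which is 3.57% of the 28 beside 3.18% of all genes tested. It had 0 lower, beside 0.743% of all genes. Every Krt15+ library lay above every Krt15- library for 1 repair gene, again Rad51b, beside 8.85% of all genes. Every Krt15+ library lay below for 1, Apex1, beside 2.44% of all genes. The fitted difference, Krt15+ minus Krt15-, was above 0 for 19 of the 28 (67.9%), beside 68.6% of all genes, and its median was 0.53 beside 0.63 over all genes tested. The direction of that median depended on single libraries: without Krt15- replicate 1 it was -0.26, with 13 of 30 genes above 0, beside 0.03 over all genes. It was also -0.02 without Krt15+ replicate 2, with 12 of 25 above 0, beside 0.38 over all genes. With quantile normalization it was 0.01, beside 0.17 over all genes. The share of all genes above 0 was not counted in these runs. The 21 genes under the filter are given as values only.

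**Figure D3:**
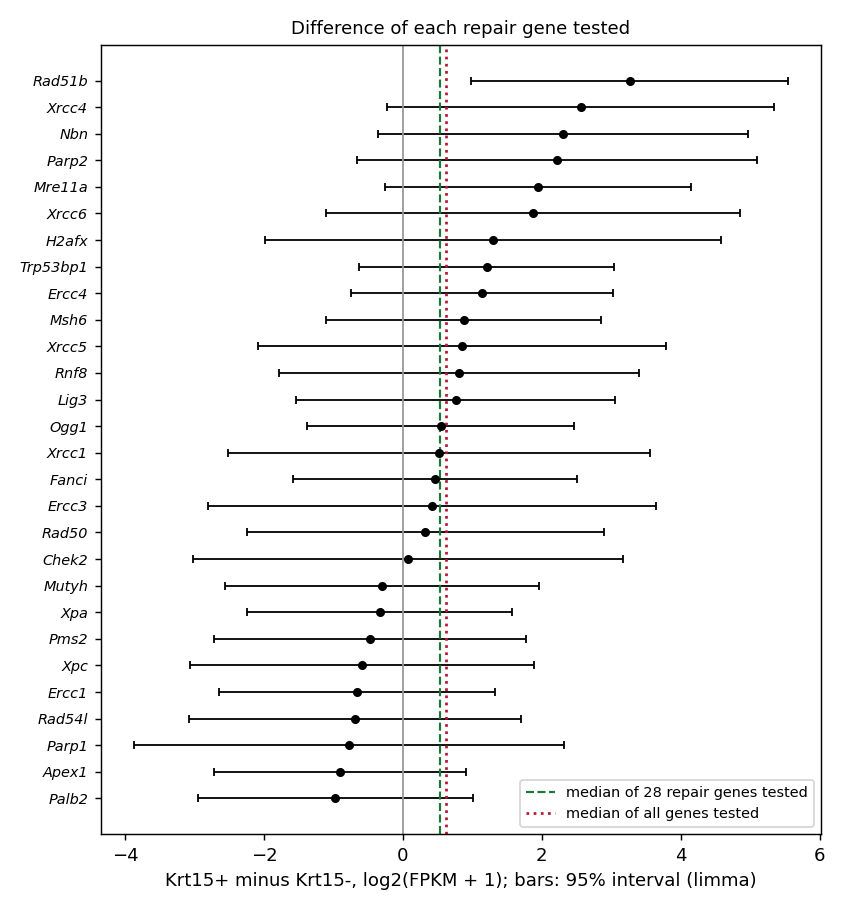
Fitted difference between Krt15+ and Krt15- cells (x axis, log2(FPKM + 1)) for the 28 repair genes tested, with 95% intervals from limma; the dashed line is their median (0.53) and the dotted line that of all genes tested (0.63). Rad51b (3.27) has the only interval that lies wholly on one side of 0.

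The promoters of the set were searched for short elements, and the CCAAT box was the one found in more than 1 gene. The 250 bases before the RefSeq transcription start (build GRCm38.p6) were at hand for 41 of the 49 genes. The search covered both strands and looked for the E2F element (TTTCGCGC or TTTGGCGC), the CCAAT box (CCAAT) and the NRF1 element, which is GCGCA followed directly by its reverse complement TGCGC. Elements of the E2F and NRF1 kind are known from promoters of replication genes and of respiratory and housekeeping genes, and the CCAAT box is a common promoter element bound by NF-Y. A CCAAT box lay in 22 of the 41 genes (53.7%), in 37.5% of 27025 genes with a promoter in the table and in 40.6% of 7080 genes tested here. The E2F element lay in 1 of the 41, Msh3 (2.44%, against 0.759% of all genes and 1.67% of those tested), and the NRF1 element in 1, Lig4 (2.44%, against 0.877% and 2.02%). These are matches of letters, not sites shown to be bound. The 30 bases around the match nearest the start are shown for Rad51b and Apex1, the genes with groups that did not overlap, for Mre11a, Xrcc5 and Xpa as genes of other routes, and for the E2F match, 5′ to 3′ on the gene's own strand with the matched letters in capitals; ATTGG is CCAAT read on the other strand.
Rad51b (chr12:79297252-79297281, plus strand, first capital 15 bases before the start): attttcctgcttctgATTGGataagtcgcc
Apex1 (chr14:50924891-50924920, plus strand, 45 bases before): ggtgccaggaggaCCAATcatcgcgctcca
Mre11a (chr9:14784603-14784632, plus strand, 38 bases before): agccattctgtagCCAATgagaatctagac
Xrcc5 (chr1:72307239-72307268, plus strand, 169 bases before): ggcaacttgtggaATTGGttctttttctcc
Xpa (chr4:46196532-46196561, minus strand, 238 bases before): agccattctttcCCAATgctcttttccatg
Msh3 (chr13:92355185-92355214, minus strand, 202 bases before): gccgtcaagTTTGGCGCGAAAtcgcagccc
Both Rad51b and Apex1 carried a CCAAT match, as did 40.6% of the 7080 genes tested. Whether the matches bear on expression was not tested. Rad51b has another RefSeq start besides the one used above, and the same match lies 84 bases before it. The capitals of Msh3 hold overlapping E2F matches, one on each strand.

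Homologous recombination genes were mostly below 1 FPKM, and Rad51b was the one that reached it in all libraries of a group. Rad51b encodes a protein that acts early in recombination, on single-stranded DNA at the trimmed break, in a complex with Rad51c and Xrcc2. Rad51b had 11.1, 2.87 and 18.2 FPKM in the Krt15+ libraries and was listed at 0 in all 3 Krt15- libraries. Every Krt15+ value thus lay above every Krt15- value, although the Krt15+ values themselves spread widely. The difference was 3.27 on the log2(FPKM + 1) scale (SE 1.04, 95% interval 0.99 to 5.55), with a limma adjusted p of 0.79. Leaving out each Krt15+ library in turn gave differences between 2.77 and 3.93. Leaving out a Krt15- library could not change the difference, which stayed at 3.27, because all 3 are listed at 0. Rad51b also passed the filter through its Krt15+ values only. Since one group is listed at 0, the size depends on the pseudocount: it was 6.40 with a pseudocount of 0.1 FPKM and 1.52 with one of 5 FPKM. Counted on the longest annotated transcript, the Krt15+ values correspond to about 669, 214 and 1189 fragments. How many separate RNA molecules these stand for is not known.

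The other 9 recombination genes gave few values above 1 FPKM, and most of these came from 1 library. Palb2, which links Brca1 to Brca2, was listed at 0 in all 3 Krt15+ libraries and at 0, 6.61 and 0 FPKM in Krt15- replicates 1 to 3 (difference -0.98, SE 0.91, limma adjusted p = 0.79). Xrcc2, a partner of Rad51b in that complex, was at 0 in the Krt15+ libraries and reached 5.28 FPKM in the same Krt15- replicate 2 library. Rad54l, a motor protein that remodels chromatin during strand exchange, stood at 0.0267, 1.80 and 0 FPKM in Krt15+ cells and at 0, 10.95 and 0.00935 FPKM in Krt15- cells. So 3 recombination genes had their highest value in Krt15- replicate 2, which no other Krt15- library shared. Rad52, an annealing protein, was at 1.54 FPKM in Krt15+ replicate 1 and at 0 elsewhere. Brca1, Bard1 and Rad51c reached at most 0.285, 0.0418 and 0.866 FPKM, each in a Krt15+ library. In bulk samples, fewer cells of a type and less RNA per cell cannot be told apart, and this holds for every level given here.

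The Mre11a, Rad50 and Nbn genes encode the complex that binds a broken end first, trims it and activates the Atm kinase. As a mean of log2(FPKM + 1) over the 3 genes, the complex stood at 2.16, 3.27 and 1.52 in the Krt15+ libraries and at 0.07, 0.97 and 1.35 in the Krt15- ones, without overlap but with the nearest libraries of the groups close together. Nbn, the regulatory subunit, stood at 0.937, 17.3 and 13.3 FPKM in Krt15+ cells and at 0.154, 0 and 2.63 FPKM in Krt15- cells, so the groups overlapped in 1 library of each (difference 2.31, SE 1.22, 95% interval -0.35 to 4.97, limma adjusted p = 0.79). Mre11a, the nuclease, stood at 6.98, 6.76 and 0 FPKM in Krt15+ cells and at 0, 0 and 0.0836 FPKM in Krt15- cells (difference 1.95, SE 1.01). Krt15+ replicates 1 and 2 lay above the other libraries, and replicate 3 was listed at 0. Its neighbour Ankrd49, singled out after its values were seen, shares 154 bp of exon with Mre11a on the opposite strand and stood at 13.8, 13.2 and 0 FPKM in Krt15+ cells and at 0, 0.0140 and 0.133 FPKM in Krt15- cells. SMART-Seq v4 chemistry, named in the labels, does not mark strand, so reads of the shared stretch cannot be assigned to one gene or the other. Rad50, the ATPase that bridges the ends, was spread over both groups, with 4.78, 5.38 and 0.666 FPKM in Krt15+ cells and 0, 6.44 and 3.23 FPKM in Krt15- cells.

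End joining genes were carried by the Ku subunits and Xrcc4, and their levels hinged on which Krt15- libraries detected them. Xrcc5, the larger Ku subunit that caps a broken end, stood at 15.5, 22.1 and 5.88 FPKM in Krt15+ cells and at 0.191, 18.2 and 18.5 FPKM in Krt15- cells. Outside Krt15- replicate 1 the groups lay in the same range: the difference was 0.85 (SE 1.34) with all libraries and -0.49 without that one. Xrcc6, the smaller Ku subunit, stood at 8.09, 25.4 and 0.926 FPKM in Krt15+ cells and at 0, 0 and 8.36 FPKM in Krt15- cells. Both Ku genes were therefore above 0 in every Krt15+ library, while Krt15- replicate 2 had Xrcc5 at 18.2 FPKM and Xrcc6 listed at 0. Xrcc4, the scaffold of the ligase that seals the ends, was even among the Krt15+ libraries, with 12.96, 14.1 and 11.1 FPKM, and was at 0, 0 and 11.4 FPKM in Krt15- cells. One Krt15- library thus lay in the Krt15+ range and the others were listed at 0. What gave rise to the zeros of Xrcc6 and Xrcc4 was not tested. The difference was 2.56 (SE 1.27, 95% interval -0.23 to 5.35, limma adjusted p = 0.79), and 0.94 with library weights. Prkdc, the large kinase recruited by Ku, reached 2.42 FPKM in Krt15+ replicate 2 and at most 0.628 FPKM elsewhere. Lig4, the ligase itself, reached 4.54 FPKM in Krt15+ replicate 3 and at most 0.219 FPKM elsewhere.

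**Figure D4:**
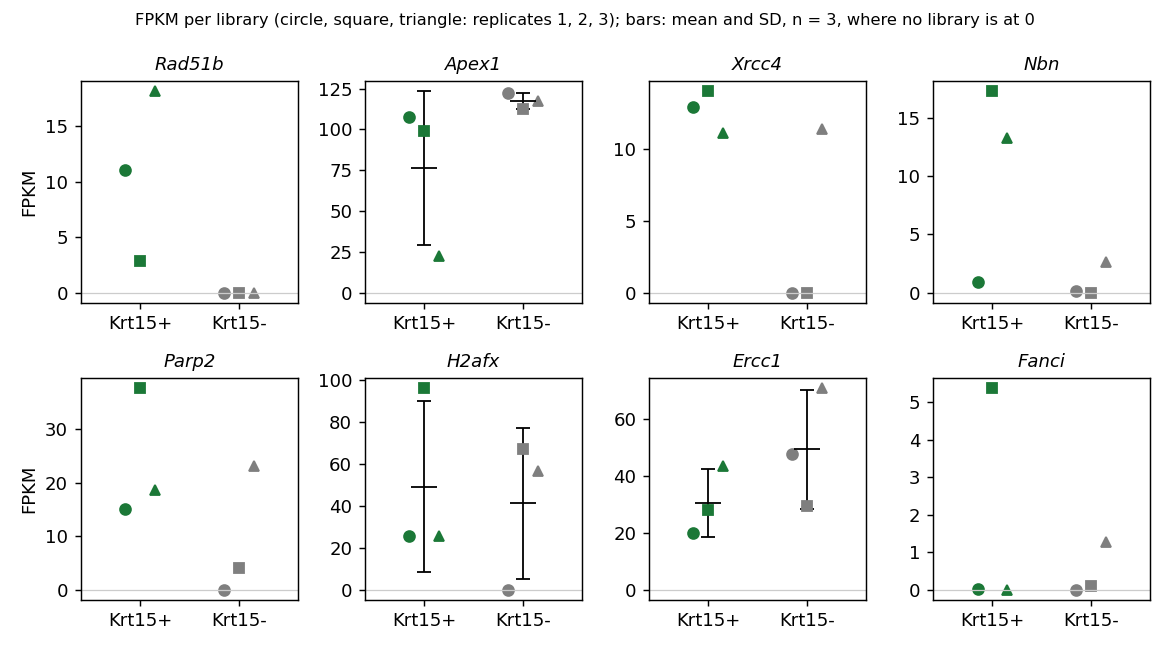
FPKM (y axis, separate scale per gene) of 8 repair genes in each library, Krt15+ left of Krt15-; circles, squares and triangles are replicates 1 to 3, and bars give the mean and SD (n = 3) where no library is at 0. Rad51b is above 0 only on the Krt15+ side, Apex1 has the tightest Krt15- values, and Xrcc4 and Parp2 have a Krt15- library inside or near the Krt15+ range.

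In base excision and single-strand break repair, Apex1 was high in every library but one. Apex1 encodes the endonuclease that cuts the backbone where a base has been removed. Apex1 had 108, 99.0 and 22.1 FPKM in Krt15+ cells (76.3 ± 47.1, SD, n = 3) and at 123, 112 and 117 FPKM in Krt15- cells (118 ± 5.05, SD, n = 3). The groups did not overlap, but 2 Krt15+ libraries lay close below the Krt15- ones and the third far below. The difference was -0.91 (SE 0.83, 95% interval -2.72 to 0.91, limma adjusted p = 0.79), and it was -0.18 without Krt15+ replicate 3 and -1.39 with median-of-ratios scaling. Tmem55b, which shares 877 bp of exon with Apex1 on the opposite strand, stood at 7.62, 35.2 and 4.47 FPKM in Krt15+ cells and at 0.175, 0.0492 and 16.8 FPKM in Krt15- cells. Parp2, a sensor of strand breaks that makes poly(ADP-ribose), stood at 15.2, 37.7 and 18.7 FPKM in Krt15+ cells and at 0, 4.05 and 23.2 FPKM in Krt15- cells (difference 2.22, SE 1.32, limma adjusted p = 0.79). The highest Krt15- library lay between the Krt15+ ones, and the difference was 1.06 without Krt15- replicate 1, 3.36 without Krt15- replicate 3 and 0.55 with library weights. Parp1, the main enzyme of this kind, followed another pattern, with 0.0187, 16.2 and 0.0171 FPKM in Krt15+ cells and 4.85, 12.7 and 0.136 FPKM in Krt15- cells, so that it was high in the second library of each group. Xrcc1, the scaffold of single-strand break repair, was likewise highest there, with 7.29, 28.1 and 1.74 FPKM in Krt15+ cells and 1.05, 28.5 and 2.73 FPKM in Krt15- cells. Lig3, the ligase bound to Xrcc1, stood at 2.14, 3.997 and 0.965 FPKM in Krt15+ cells and at about 0, 5.22 and 0.0205 FPKM in Krt15- cells. The glycosylases Ogg1 and Mutyh were low. Ogg1 reached at most 2.83 FPKM, in Krt15+ replicate 2, and Mutyh at most 6.31 FPKM, in Krt15- replicate 3.

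Nucleotide excision genes stood at nearly the same level in the groups, with a difference of -0.04 in their mean that was smaller than the spread among libraries. This mean of log2(FPKM + 1) over 7 genes was 1.64, 2.61 and 2.58 in the Krt15+ libraries and 1.61, 2.69 and 2.66 in the Krt15- ones, in both groups lowest in replicate 1. Xpa, which verifies the damaged strand, was among the steadiest of the set, with 36.3, 26.9 and 40.2 FPKM in Krt15+ cells and 48.8, 31.8 and 51.9 FPKM in Krt15- cells (difference -0.34, 95% interval -2.24 to 1.57). Ercc1, the partner of the nuclease that cuts 5′ of the lesion, stood at 20.1, 27.96 and 43.7 FPKM in Krt15+ cells (30.6 ± 12.0, SD, n = 3) and at 47.7, 29.4 and 71.0 FPKM in Krt15- cells (49.4 ± 20.8, SD, n = 3). The ranges overlapped, and the difference was -0.66 (SE 0.91, limma adjusted p = 0.85), with -0.35 without Krt15- replicate 3, -0.40 without Krt15+ replicate 1 and -1.14 with median-of-ratios scaling. Ercc4, that nuclease, was much lower, with 0.461, 2.70 and 2.96 FPKM in Krt15+ cells and 0, 0.0345 and 0.919 FPKM in Krt15- cells (difference 1.14, SE 0.86, limma adjusted p = 0.79). So the 2 partners differed in level, and their differences lay on opposite sides of 0. Ercc3, a helicase of the transcription factor that opens the DNA, stood at 0, 7.72 and 19.1 FPKM in Krt15+ cells and at 0, 17.4 and 3.00 FPKM in Krt15- cells. Xpc, the lesion sensor, reached 4.26 FPKM in Krt15+ and 6.81 FPKM in Krt15- cells. Ercc2, the other helicase, and Ercc5, the nuclease of the 3′ side, stayed at or below 1.82 and 0.616 FPKM.

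Mismatch repair and Fanconi genes were low, and each reached 1 FPKM in at most 2 libraries. Msh6, which recognises single mispairs, stood at 5.57, 0.639 and 0.0382 FPKM in Krt15+ cells and at 0, 0 and 0.819 FPKM in Krt15- cells (difference 0.87, SE 0.91, limma adjusted p = 0.81). Pms2, the nuclease subunit that acts next, stood at 0.723, 1.79 and 0.285 FPKM in Krt15+ cells and at 0, 7.73 and 0.890 FPKM in Krt15- cells (difference -0.47, SE 1.03, limma adjusted p = 0.91). Without single libraries the Pms2 difference lay between -1.15 (without Krt15- replicate 1) and -0.21 (without Krt15+ replicate 3). Msh3, which recognises small loops and has the E2F match shown above, was at 0, 5.22 and 0 FPKM in Krt15+ cells and at 0, 0.0774 and 0 FPKM in Krt15- cells. Of the Fanconi genes, Fanci, a subunit of the clamp that is placed on crosslinked DNA, was the only one tested, with 0.0176, 5.38 and 0 FPKM in Krt15+ cells and 0, 0.102 and 1.26 FPKM in Krt15- cells (difference 0.46, SE 0.93, limma adjusted p = 0.90). Fancc and Fancg, of the core complex, reached 3.65 and 2.26 FPKM in Krt15+ replicate 2 and were listed at 0 in all other libraries. All 3 of these Fanconi genes and Msh3 thus had their highest value in the same Krt15+ library. Fancd2, the partner of Fanci, and Fanca did not exceed 0.0525 FPKM.

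The damage kinases were low apart from Chek2. Chek2, the effector kinase downstream of Atm, stood at 0, 9.82 and 4.52 FPKM in Krt15+ cells and at 0, 21.2 and 1.33 FPKM in Krt15- cells, with a difference of 0.07 (SE 1.41, 95% interval -3.03 to 3.16) that turned below 0 in several settings. Atm, the kinase switched on by double-strand breaks, stood at 1.88, 0.710 and 0.141 FPKM in Krt15+ cells and at 0, 0 and 1.76 FPKM in Krt15- cells. Atr, the kinase of stalled forks, and its effector Chek1 reached 3.98 and 2.24 FPKM in Krt15+ replicate 2 and at most 0 and 0.0348 FPKM in Krt15- cells. None of Atm, Atr and Chek1 passed the filter.

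Chromatin factors at the break included 2 of the more abundant genes of the set. H2afx, the histone variant that is phosphorylated around breaks, stood at 25.6, 96.3 and 25.6 FPKM in Krt15+ cells (49.2 ± 40.8, SD, n = 3) and at 0.184, 67.1 and 56.7 FPKM in Krt15- cells (41.3 ± 36.0, SD, n = 3). Apart from Krt15- replicate 1 the ranges overlapped: the difference of 1.30 (SE 1.502, limma adjusted p = 0.82) was -0.61 without that library. Rnf8, the ubiquitin ligase that acts first at the marked chromatin, stood at 6.51, 20.8 and 30.8 FPKM in Krt15+ cells and at 2.14, 15.4 and 17.9 FPKM in Krt15- cells. Rnf168, the ligase that follows it, reached 2.06 FPKM, in Krt15- replicate 3. Mdc1, which binds the phosphorylated histone, was at 1.102, 0.0307 and 2.22 FPKM in Krt15+ cells and at most 0.615 FPKM in Krt15- cells. Trp53bp1, which protects ends from trimming and steers them to end joining, was at 3.06, 2.37 and 0.508 FPKM in Krt15+ cells and at 0, 0.633 and 0.0314 FPKM in Krt15- cells (difference 1.204, SE 0.84). Its overlap with the Krt15- range came from 1 Krt15+ library.

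**Figure D5:**
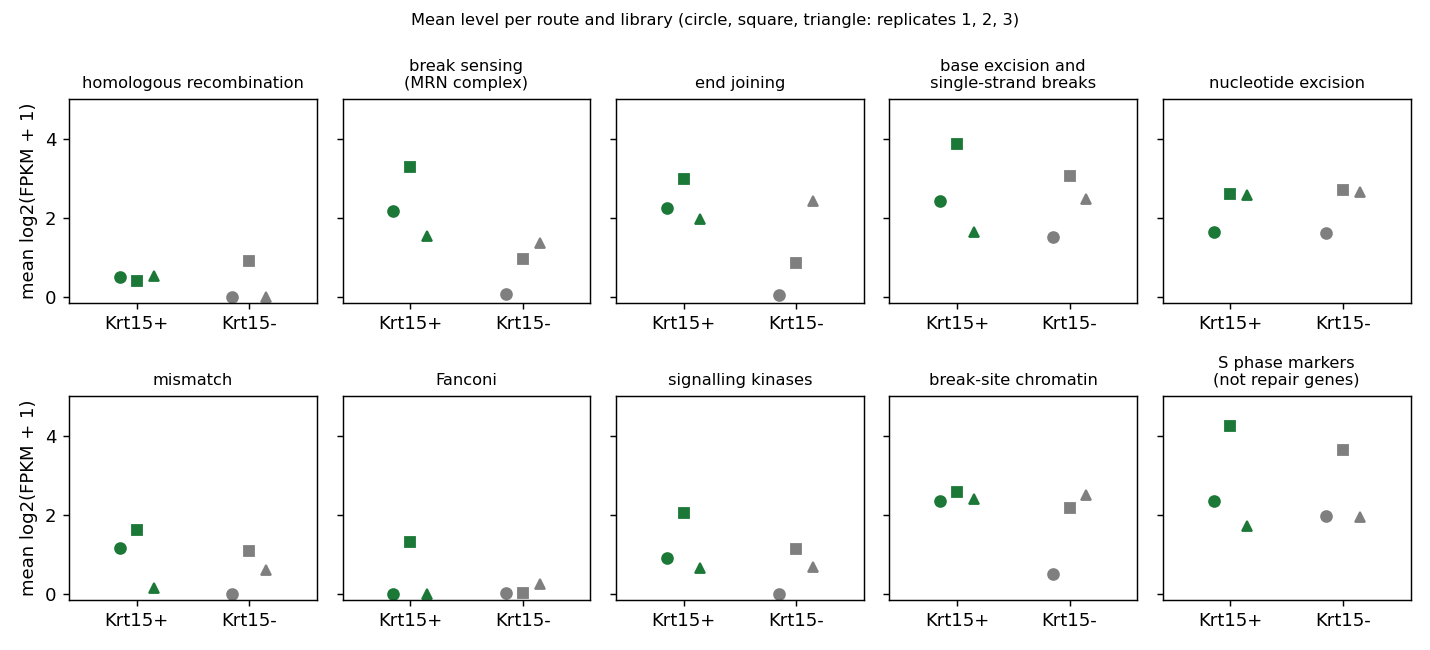
Mean of log2(FPKM + 1) over all genes of each repair route (9 panels) and over 15 S phase markers (last panel) in each library, Krt15+ left of Krt15-; circles, squares and triangles are replicates 1 to 3. Only the break-sensing panel has all Krt15+ points above all Krt15- points, nucleotide excision is level between the groups, and recombination and Fanconi are the lowest panels, at 1.32 or less.

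Of the repair genes, 41 reached 1 FPKM in at least 1 library. In at least 1 Krt15+ library and in no Krt15- library, 15 of them did so (36.6%), beside 19.0% of the 11590 genes of the table that reached 1 FPKM anywhere, and the reverse held for 4 (9.76%, Palb2, Xrcc2, Ercc2 and Rnf168), beside 7.62% of those genes. The difference between these shares was not tested. Of the 15, only Rad51b did so in all 3 Krt15+ libraries. The highest value of a gene fell in Krt15+ replicate 2 for 15 of the 41 (36.6%) and in Krt15- replicate 2 for 10 (24.4%), beside 25.7% and 20.4% of the 11590 genes, which were the libraries with most highest values over the table too. The summed FPKM of 15 S phase markers, genes of DNA replication, was likewise highest in replicate 2 of each group, at 189, 407 and 143 in Krt15+ cells and at 187, 377 and 130 in Krt15- cells. The summed FPKM of 12 genes of G2 and mitosis was 171, 593 and 99.8 in Krt15+ cells and 1196, 646 and 423 in Krt15- cells. The part of cell cycle in the repair gene values was not tested.

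Markers of other cell types were also present, and part of the fibroblast list separated the groups. All 8 basal keratinocyte markers reached 1 FPKM in every library but Krt15- replicate 1, where 7 did. There Krt5, Krt14 and Krt15 stood at 479, 1061 and 2350 FPKM, but Trp63 was at 0.459 FPKM. Itgb1, the gene of CD29, was at 1.03 FPKM there, against 10.8 to 43.3 FPKM in the other libraries. Itga6 was at 1.46 FPKM there, against 4.30 to 18.3 FPKM in the others. The 8 markers summed to 3859 to 14090 FPKM in Krt15+ cells and 3926 to 11100 FPKM in Krt15- cells. Of 8 fibroblast markers, 1, 1 and 1 reached 1 FPKM in the Krt15+ libraries (Dcn each time) and 6, 6 and 8 in the Krt15- ones, with sums of 71.2 to 176 FPKM in Krt15+ and 104 to 753 FPKM in Krt15- libraries. Col1a2, Pdgfra and Lum were at 0 in all Krt15+ libraries, and Col1a1, Col3a1, Dpt and Mfap5 were at most 0.0744 FPKM there. Of 8 immune markers, 1, 5 and 2 did so in the Krt15+ libraries and 2, 6 and 5 in the Krt15- ones, with sums of 56.1 to 7280 FPKM in Krt15+ libraries, where Lyz2 made up nearly all of the highest, and 449 to 952 FPKM in Krt15- libraries. Ptprc, which marks all leukocytes, was at most 0.0102 FPKM in Krt15+ and 3.95 FPKM in Krt15- libraries. The 4 endothelial markers were at 0 in all Krt15+ libraries and summed to at most 4.03 FPKM in Krt15- ones, and the 6 suprabasal markers summed to 8762 to 51144 FPKM in Krt15+ and 7402 to 36539 FPKM in Krt15- libraries. Their part in the repair gene values was not tested.

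None of the other repair genes listed passed the test either. Of 81 further repair genes, 57 passed the filter, and 0 had a limma adjusted p below 0.05, beside 0.00% of all genes tested. At an unadjusted p below 0.05 limma had 1 higher and 0 lower, beside 3.18% and 0.743% of all genes tested. The median difference was 0.51, beside 0.63 over all genes tested. The difference was above 0 for 40 and below 0 for 17, where 68.6% of all genes tested were above 0. Polm, a polymerase that fills gaps during end joining, stood at 2.51, 3.15 and 6.09 FPKM in Krt15+ cells and at 0.0118, 0 and 0.301 FPKM in Krt15- cells (difference 2.10, SE 0.88, limma adjusted p = 0.79). Aplf, an end joining cofactor that binds Ku, stood at 0.570, 3.38 and 7.59 FPKM in Krt15+ cells and at 0, 0 and 0.00795 FPKM in Krt15- cells (difference 1.96, SE 0.92, limma adjusted p = 0.79). The groups did not overlap for either. On the lower side, Neil3, a glycosylase of oxidised bases, stood at 0, 3.45 and 0.0447 FPKM in Krt15+ cells and at 53.6, 13.98 and 0 FPKM in Krt15- cells (difference -2.49, SE 1.49, limma adjusted p = 0.79). Rad18, a ubiquitin ligase of damage bypass, stood at 0.142, 4.31 and 0.0130 FPKM in Krt15+ cells and at 0, 10.01 and 11.7 FPKM in Krt15- cells (difference -1.503, SE 1.27, limma adjusted p = 0.79). Both of these overlapped between the groups. All Krt15+ libraries lay above all Krt15- ones for 4 of the 57, beside 8.85% of all genes tested. Besides Polm and Aplf these were Dclre1c, the Artemis nuclease of end joining, and Rad23b, a partner of Xpc, both named after their values were seen. They lay below for 1, beside 2.44% of all genes tested, and it is named likewise: Gtf2h5, a small subunit of the transcription and repair factor with Ercc2 and Ercc3, stood at 227, 192 and 187 FPKM in Krt15+ cells and at 324, 307 and 295 FPKM in Krt15- cells (difference -0.61, SE 0.52, limma adjusted p = 0.79).

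Many repair genes lie close to others, which matters for values without strand. In 20 of the 49 genes the exons overlapped those of another gene of the table, in 19 on the opposite strand, by the mouse annotation at hand. Besides the pairs given above, Xrcc4 shares 112 bp with Tmem167, Ercc1 106 bp with Cd3eap, Xpa 77 bp with Ncbp1, Fanci 921 bp with Polg and Rad54l 1184 bp with Lrrc41. Reads in those stretches could come from either gene.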

How the data were processed

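RNA of 6 sorted libraries was measured by RNA-seq, with cDNA made straight from cells by a SMART-Seq v4 kit per the labels' protocols. The deposited table holds FPKM values estimated by the authors, although its title speaks of counts, so the planned log-scale fit for normalized values applied. The submitters' processing notes name mm9 as the build and list the tools DESeq2, Cufflinks 2.2.1 and STAR 2.5 without roles; which annotation, filters on reads or option for strand in counting applied is not given in the sources used here. Symbols turned into dates (27 of 24043 rows) were left out. Genes averaging 1 FPKM or more were tested as log2(FPKM + 1), which understates changes of low genes, with limma 3.58.1 in R 4.3.3 (variance trend, group as only term, 2-sided, Benjamini-Hochberg over 9423 genes, called below 0.05); the fit was tested on simulated data. Depth was estimated from the step that a single fragment makes in 2172 genes with a single annotated transcript, using GENCODE M21 lengths, and is approximate, as are fragment numbers; no counting intervals are given. Sequences are from RefSeq, build GRCm38.p6, in another build than the values, and were matched by symbol.

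The genes and lists were chosen with earlier results of these data known. Named in each route were the gene of highest mean, those of largest difference in each direction, and any that passed the test or had groups without overlap; from the further repair genes, those past the test and otherwise the pair of smallest p in each direction. Other genes were added to show every member of the set. Alternatives were the pseudocount, the filter, the scaling, library weights, a replicate block and leaving out libraries.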

Additional observations from a re-analysis of the deposited data

How the results depend on the processing

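Under every alternative run, 0 repair genes of the set and 0 of the further repair genes passed the test. Over all genes, 8 of 9423 passed with library weights, 1 of 9302 without Krt15- replicate 2, and 0 in the other runs. With library weights the smallest limma adjusted p of the set was 0.37. The median difference of the set was 0.99 and 0.25 with pseudocounts of 0.1 and 5 FPKM, 0.45 without the filter, 0.44 with upper-quartile, 0.38 with median-of-ratios and 0.01 with quantile scaling, 0.09 with library weights, and -0.26 to 1.25 without single libraries (1.25 without Krt15- replicate 2). With 1 FPKM required in all 6 libraries 5 genes were left, with a median of -0.34. The median of all genes, 0.63, was 0.48, 0.43 and 0.17 with those scalings. At 5 FPKM in place of 1, 13, 18 and 11 repair genes were detected in Krt15+ replicates 1 to 3 and 3, 17 and 10 in Krt15- replicates 1 to 3. The mean difference of the chromatin factors, 0.72, was -0.11 with quantile normalization.

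Of 229 recomputed differences of named genes 15 changed sign. Chek2 was -0.079 with a pseudocount of 5 and -0.016 with median-of-ratios scaling, between -0.88 and 1.36 without single libraries, and -0.52 without both replicate 3 libraries. Fanci was -0.012 with quantile normalization. H2afx was -0.19 with library weights and between -0.61 and 2.31 without single libraries, and -0.30 without both replicate 1 libraries. Xrcc5 was -0.21 with quantile normalization, -0.17 with library weights, between -0.49 and 1.53 without single libraries, and -0.62 without both replicate 1 libraries. With library weights Nbn (2.31) was 1.35 and Ercc4 (1.14) was 0.64. The cause was not tested.

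The groups share replicate numbers and the sample codes that go with them, but the labels do not say what these mark. Same-numbered libraries correlated in their deviations by 0.13, 0.17 and 0.0089. For numbers 1 and 2 this was above the correlation with every other number of the other group. Number 3 lay within the range of its correlations with the other numbers (-0.03 to 0.02). The main fit was planned with group as only term, so the libraries were not treated as paired there. Whether they are paired cannot be told from the labels. With the replicate block 0 repair genes were called, 1 had an unadjusted p below 0.05, and the adjusted p of Rad51b was 0.74. At this depth values of 1 FPKM or more rest on about 76.8 fragments or more, while 26 of 29 values between 0 and 0.1 FPKM rest on fewer than 10 fragments.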
